A study of Homo sapiens with 6 samples.

Results

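The genes described here build the autophagosome, the double membrane that wraps cytoplasm and carries it to the lysosome. They are 38 genes of autophagy initiation, membrane supply, protein conjugation and vesicle fusion, together with the transcription factors FOXO1 and FOXO3 and the mitophagy kinase PINK1. Members were taken by symbol, as the 107 probe sets whose annotation names 1 of these genes and no other, out of 54613 probe sets in all, and at the gene level as 38 of 19775 measured genes, so that every listed gene was measured. The test set 3 LP-1/Cfz arrays against 3 LP-1 arrays. LP-1 is a human multiple myeloma cell line, and LP-1/Cfz is the single derivative of it that was selected stepwise in carfilzomib, an inhibitor of the proteasome, to growth in 12 nM. LP-1/Cfz cells were kept without drug for 1 week before RNA was taken, and the parental LP-1 cells were not selected. Both were grown, per the labels, with 4% serum, while the methods of the study give another serum content for the culture of the line. Nothing in the labels says that the triplicates were separate cultures. The spread behind each p-value is therefore that of these 6 samples alone and may be technical. Nor is it stated whether LP-1/Cfz is 1 clone or a pool of resistant cells, and in bulk RNA a change in the share of a subclone and a change in RNA per cell cannot be told apart.

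Autophagy starts when the ULK kinase complex is released from inhibition by mTORC1 or activated by AMPK. It then switches on a class III phosphatidylinositol 3-kinase built around Beclin 1, whose lipid product recruits WIPI proteins, while ATG9 vesicles and the lipid transfer proteins ATG2A and ATG2B supply membrane. A pair of ubiquitin-like conjugation systems attaches ATG8 proteins to that membrane, and SNARE proteins finally fuse the closed vesicle with the lysosome. In plasma cells and myeloma cells, which make large amounts of secreted protein, this route removes material beside the proteasome, and it is therefore of interest in cells resistant to proteasome inhibitors. Much of the pathway is controlled by phosphorylation and protein turnover, which an mRNA array does not measure.

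The deposited log2 values are centred, each probe set on its own unstated baseline. They give differences between arrays, and neither a gene's level, its order against another gene nor its signal over background. Where the arrays were quantile normalized again as an alternative fit, that step therefore ranked probe sets by distance from these baselines and not by signal. The medians of the arrays over all probe sets lay between 0.010 and 0.021 in LP-1/Cfz and between 0.0030 and 0.0061 in LP-1. One array differed from the rest. LP-1/Cfz replicate 3 had the widest spread of values (interquartile range 0.338, where the other 5 arrays had 0.23 to 0.264) and correlated at 0.903 and 0.891 with the other LP-1/Cfz arrays, which correlated at 0.941 with each other. For 24 of the 38 members this array gave the lowest of the 3 LP-1/Cfz values, as it did for 47.0% of all genes. Without it the same 4 members passed the test that is described next. Because levels are lost, the plasma cell identity could not be checked, and the markers could be read only as differences. In LP-1/Cfz, of 7 plasma cell markers 3 were higher and 1 lower (57.1%, where 16.7% of all genes were called). The lower one was CD38, a surface enzyme of plasma cells, with a log2 fold change of -1.07 (adjusted p = 2.09e-05), larger than that of any autophagy member. Of 5 T and NK cell markers 0 were higher and 1 was lower, of the 4 measured of 5 myeloid markers 0 and 0, and of 5 stromal markers 0 and 0 (limma, adjusted p under 0.05, with 1 of the myeloid and 0 of the stromal markers at an unadjusted p under 0.05).

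Calls among the listed genes were no more frequent than among all genes. The list leaves out the ATG8 family, of which the study reports GABARAPL1 as upregulated in LP-1/Cfz. At the gene level, where limma tested the mean of the probe sets of a gene and p-values were adjusted across all genes (Benjamini-Hochberg), 4 of the 38 members passed an adjusted p of 0.05, which is 10.5% of them against 16.7% of all genes. FOXO3 and PINK1 were higher in LP-1/Cfz, where 6.72% of all genes were higher, and NRBF2 and SNAP29 were lower, where 10% of all genes were lower. None of the 4 reached a fold change of 1.5, and over all 107 member probe sets 0 reached the fold change of 1.7 that the study uses as a cutoff, where 1.59% of all probe sets did. The median log2 fold change of the 38 genes was -0.0038, with 18 above and 20 below 0, against a median of 0.017 over all genes. At an unadjusted p under 0.05 there were 10 of the 38 members, to be read beside 5892 of all 19775 genes. The counts at an unadjusted p that are given below for parts of the list have the same background. Counts of genes that passed, given below by part, are to be read beside the 16.7% of all genes that passed.

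**Figure D1:**
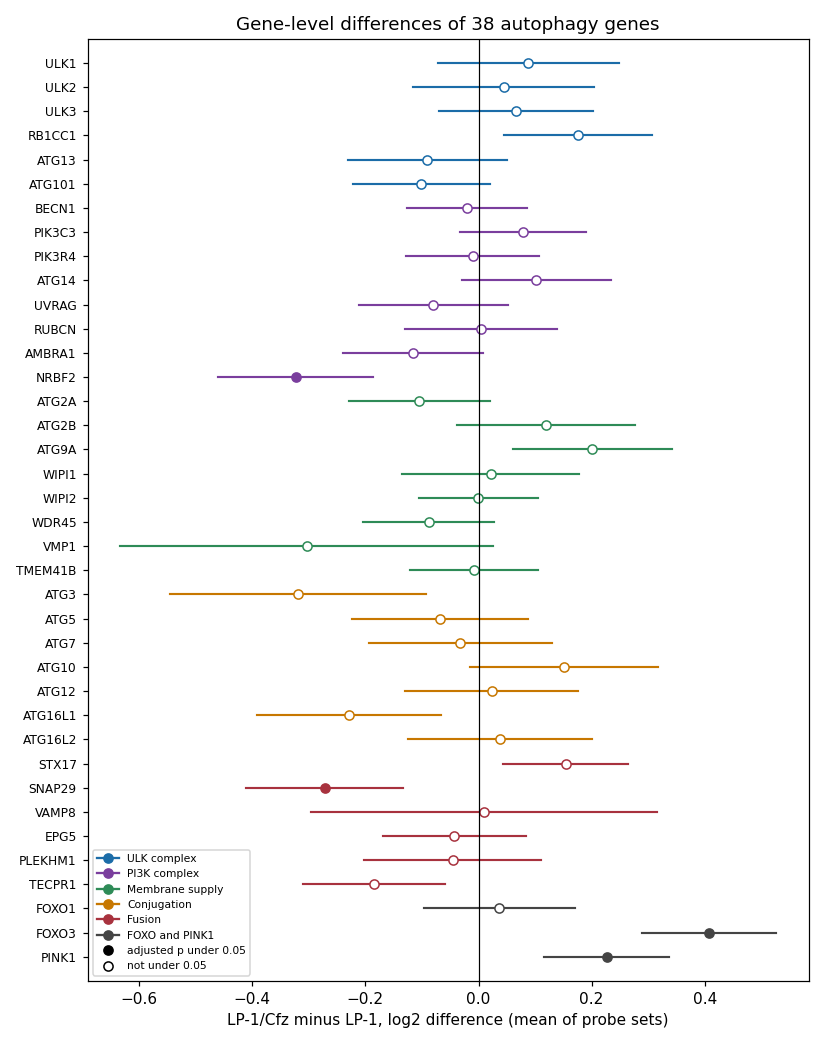
Log2 difference between LP-1/Cfz and LP-1 for each of the 38 genes, with the 95% interval of the limma fit (3 arrays a group), coloured by role and filled where the adjusted p was under 0.05. FOXO3 and PINK1 lie to the right of 0 and NRBF2 and SNAP29 to the left. The intervals of 37 of the 38 genes stay within a fold change of 1.5, as do those of 18532 of all 19775 genes (not drawn).

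For the 34 members that did not pass, the interval of the fit bounds the measured difference. No filter on dim probe sets was possible, so a narrow interval near 0 may also come from probe sets that read little signal. In 33 of them the 95% interval of the limma fit stayed within a fold change of 1.5 in either direction, with VMP1 as the exception, since its interval ran from -0.63 to 0.025. The same held for 18532 of all 19775 genes, so that it does not set the members apart. The median standard error over all 38 members was 0.0585 on the log2 scale. Groups did not overlap for 14 members, 6 of them higher in LP-1/Cfz, a share to be read beside the 35.9% of all genes whose groups did not overlap.

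Of the ULK complex, 0 of 6 members passed the limma test, where 16.7% of all genes did. In this complex 1 member, RB1CC1, had an unadjusted p under 0.05. ULK1, the kinase that opens autophagy, had gene values of 0.26, 0.031 and 0.048 in LP-1/Cfz, against -0.0023, 0.028 and 0.046 in LP-1. LP-1/Cfz replicate 1 was the high one and the other arrays of both lines overlapped, and the log2 difference was 0.088 (standard error 0.069, 95% interval from -0.072 to 0.25, adjusted p = 0.45 by limma). The paralog ULK2 had a log2 difference of 0.044 and ULK3, which also acts in hedgehog signalling, one of 0.067. RB1CC1, the large scaffold of the complex also known as FIP200, had 0.022, 0.074 and -0.040 in LP-1/Cfz, against -0.17, -0.089 and -0.21 in LP-1. All 3 LP-1/Cfz values lay above all 3 LP-1 values, on both of its probe sets, by a log2 difference of 0.18 (standard error 0.0565), but the adjusted p was 0.0749. ATG13 and ATG101, which form the HORMA pair of the complex, had log2 differences of -0.090 and -0.10, with adjusted p values of 0.372 and 0.247.

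In the PI3K complex 1 of 8 members passed, where 16.7% of all genes did. BECN1, the Beclin 1 scaffold, had -0.38, -0.36 and -0.37 in LP-1/Cfz, against -0.36, -0.32 and -0.37 in LP-1. The 6 values overlapped and the log2 difference was -0.021, with a 95% interval from -0.13 to 0.085, and the sign turned to 0.043 where the arrays were quantile normalized again. The catalytic subunit PIK3C3 (VPS34) had a log2 difference of 0.078 over 7 probe sets, and its regulatory subunit PIK3R4 (VPS15) had -0.0099. ATG14, which directs the complex to forming autophagosomes, and UVRAG, which directs it to endosomes, had 0.10 and -0.080, and RUBCN, a brake on the UVRAG complex, had 0.0044. AMBRA1, which couples Beclin 1 to ubiquitin ligases, had -0.12 (adjusted p = 0.192), with all 5 of its probe sets below 0.

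NRBF2, a subunit that binds ATG14 and raises the activity of the kinase, was the member of this complex that fell. Its gene values were 0.24, 0.27 and 0.12 in LP-1/Cfz, against 0.48, 0.57 and 0.55 in LP-1. The groups did not overlap, the lowest value being that of LP-1/Cfz replicate 3, and the log2 fold change was -0.32 (standard error 0.0589, 0.799-fold, adjusted p = 0.00805 by limma). Both of its probe sets passed, at -0.34 (adjusted p = 0.0125) and -0.30 (adjusted p = 0.0403). At the gene level NRBF2 passed whichever 1 of the 6 arrays was left out (adjusted p from 0.013 to 0.0403), and on its probe sets in 4 and 1 of these 6 fits. The 10 measured genes around it on chromosome 10, 5 on each side, had a median log2 fold change of 0.041, with 0 higher and 2 lower. The lower ones were REEP3, at -0.49 (adjusted p = 0.00066 by limma), and ADO, at -0.27 (adjusted p = 0.0089).

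Of the membrane supply genes, 0 of 8 passed the limma test, where 16.7% of all genes did. At an unadjusted p under 0.05 there was 1. That gene was ATG9A, the membrane protein of the seed vesicles, which had 0.16, 0.26 and 0.12 in LP-1/Cfz, against 0.024, -0.11 and 0.020 in LP-1. The LP-1/Cfz values all lay above the LP-1 values, by 0.20 (standard error 0.0609), with an adjusted p of 0.061, or 0.0418 with the arrays weighted by quality. The lipid transfer proteins ATG2A and ATG2B had log2 differences of -0.10 and 0.12, and WDR45, the X-linked member of the WIPI family, one of -0.088. WIPI2, which recruits the ATG16L1 complex, had -0.00032, the smallest difference of all 38 members. TMEM41B, a lipid scramblase of the endoplasmic reticulum, had -0.0074, on probe sets that gave -0.083 and 0.068.

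WIPI1 and VMP1 also did not pass. WIPI1, a phosphatidylinositol 3-phosphate reader, had -1.36, -1.31 and -1.49 in LP-1/Cfz, against -1.32, -1.43 and -1.47 in LP-1, which overlapped (adjusted p = 0.868). With the arrays quantile normalized again it had a log2 fold change of 0.26 (adjusted p = 0.0215 by limma). That was the 1 of 14 alternative fits that called WIPI1, and the step acts on centred values, so that no difference of WIPI1 can be read from it. VMP1, a scramblase that works beside TMEM41B, had -1.60, -1.96 and -1.81 in LP-1/Cfz, against -1.62, -1.66 and -1.17 in LP-1 on the single probe set that names it alone. The values overlapped, and the log2 difference of -0.30 had a standard error of 0.142 (adjusted p = 0.201 at the gene level). With the arrays quantile normalized again the difference was -0.045.

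A further 3 probe sets name both VMP1 and MIR21, the gene of the microRNA miR-21, which lies at the end of VMP1 in the same orientation, and they are outside the members for that reason. One of these shared probe sets, 224917_at, had -2.81, -2.71 and -2.77 in LP-1/Cfz, against -1.93, -2.05 and -2.12 in LP-1. The groups were well apart, and the log2 fold change was -0.73 (0.602-fold, standard error 0.0713, adjusted p = 0.00063 over all probe sets), larger than that of any of the 107 member probe sets. The other shared probe sets had -0.033 (adjusted p = 0.784) and 0.098 (adjusted p = 0.713). With the arrays quantile normalized again the difference on 224917_at was -0.39 (adjusted p = 0.0154), and without any 1 array it ran from -0.77 to -0.68. Which of the transcripts of the locus the probe set reads was not tested, and the array does not measure the mature microRNA. Its sequence, from RefSeq (GRCh38.p14, chr17:59841273-59841294, plus strand), is shown because the largest difference at the locus carries its name, with the seed, bases 2 to 8, in capitals.
hsa-miR-21-5p: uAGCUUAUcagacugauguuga

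**Figure D2:**
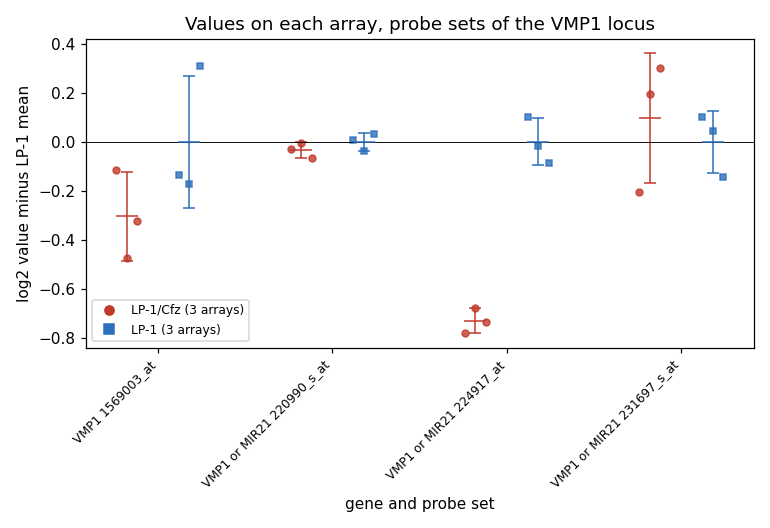
Log2 value minus the LP-1 mean for the 4 probe sets of the VMP1 locus, with each of the 3 LP-1/Cfz and 3 LP-1 arrays as a point and bars for the mean and SD. On 224917_at the LP-1/Cfz arrays lie apart from LP-1 by -0.73, and on the other 3 probe sets the groups overlap.

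The conjugation machinery had 0 of 7 members past the limma test, where 16.7% of all genes passed. At an unadjusted p under 0.05 there were 2. ATG7, the E1-like enzyme that starts both reactions, had a log2 difference of -0.032, and ATG10, the E2-like enzyme of ATG12, had 0.15 (adjusted p = 0.207). ATG5 and ATG12, which are joined to each other, had -0.069 and 0.023. The 95% interval of ATG5 ran from -0.22 to 0.087, and its sign turned to 0.073 with the arrays quantile normalized again. ATG16L2, the less studied paralog of ATG16L1, had 0.037.

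ATG3, the E2-like enzyme that hands ATG8 proteins to lipid, had -0.24, -0.080 and -0.21 in LP-1/Cfz, against -0.076, 0.28 and 0.24 in LP-1. The groups did not overlap but came close to each other at LP-1 replicate 1, and the log2 difference of -0.32 had an adjusted p of 0.0629, or 0.0108 without LP-1 replicate 1. Its probe sets differed, with a log2 difference of -0.58 on 220237_at, where LP-1 replicates 2 and 3 were high at 1.27 and 1.21, and one of -0.058 on 221492_s_at. ATG16L1, which places the conjugation on the membrane, had -0.016, 0.0088 and -0.14 in LP-1/Cfz, against 0.14, 0.29 and 0.10 in LP-1. The LP-1/Cfz values were all lower than the LP-1 values (log2 difference -0.23, adjusted p = 0.063), and more so on 232612_s_at, at -0.33 (adjusted p = 0.0558), than on 220521_s_at, at -0.12 (adjusted p = 0.514).

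Among the 6 fusion genes 1 passed, where 16.7% of all genes did, and 3 had an unadjusted p under 0.05. SNAP29, the SNARE that pairs with syntaxin 17 on the autophagosome, had -0.14, -0.15 and -0.24 in LP-1/Cfz, against 0.054, 0.046 and 0.19 in LP-1. The groups did not overlap, and the log2 fold change was -0.27 (standard error 0.0598, 0.828-fold, adjusted p = 0.0185 by limma). All 3 of its probe sets were below 0, between -0.34 and -0.21, and 1 of them passed, 222597_at at -0.27 (adjusted p = 0.028). It passed in 5 of the 6 fits with 1 array left out, and missed without LP-1 replicate 3, which held the highest value (adjusted p = 0.0729). The probe set passed in 1 of the 6, the one without LP-1/Cfz replicate 3 (adjusted p from 0.0437 to 0.119). The 10 measured genes around it on chromosome 22, 5 on each side, had a median log2 fold change of 0.083, with 1 higher and 2 lower. The higher one was TMEM191A, at 0.26, and the lower ones were THAP7, at -0.28, and PI4KA, at -0.21.

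STX17, the syntaxin that SNAP29 joins, ran the other way without passing. Its gene values were -0.46, -0.48 and -0.48 in LP-1/Cfz, against -0.68, -0.61 and -0.60 in LP-1. The difference of 0.15 (standard error 0.0476) was seen on all 5 probe sets, between 0.083 and 0.25, with an adjusted p of 0.0652. STX17 was called in 2 of 14 alternative fits. These were array weights and a further quantile normalization (adjusted p = 0.0111), a step that acts on centred values. With 1 array left out STX17 passed in 0 of 6 fits (adjusted p from 0.0812 to 0.216). VAMP8, the lysosomal SNARE of the same bundle, had -5.12, -4.86 and -4.53 in LP-1/Cfz, against -4.91, -4.80 and -4.84 in LP-1. The groups overlapped, the 3 LP-1/Cfz values being the more spread, and the log2 difference was 0.0096 (adjusted p = 0.975). Its sign was not stable, at -0.092 with array weights and 0.48 (adjusted p = 0.045) with the arrays quantile normalized again.

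TECPR1 and PLEKHM1 tether autophagosomes to lysosomes, and EPG5 does so through RAB7. TECPR1 had 0.11, 0.10 and -0.019 in LP-1/Cfz, against 0.25, 0.26 and 0.24 in LP-1. The LP-1/Cfz values were all lower, on each of 3 probe sets, and the log2 difference of -0.18 had an adjusted p of 0.0539, the nearest to the threshold among those that missed it. EPG5 had a gene difference of -0.043 (adjusted p = 0.655) over 7 probe sets that did not run the same way, from -0.31 to 0.24. On 1 of them, 228453_at, it had -0.43, -0.23 and -0.21 in LP-1/Cfz, against 0.060, -0.060 and 0.065 in LP-1. The groups did not overlap there and the probe set passed (log2 fold change -0.31, adjusted p = 0.0478), but with 1 array left out it passed in 1 of 6 fits, the one without LP-1/Cfz replicate 3 (adjusted p from 0.0472 to 0.16), and 4 of the 7 probe sets were above 0. PLEKHM1 had -0.045.

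The members that rose act on transcription and on mitochondria. FOXO3, a forkhead factor that is restrained by AKT and switches on autophagy and stress genes, had -0.043, -0.10 and -0.13 in LP-1/Cfz, against -0.53, -0.51 and -0.46 in LP-1. The groups were far apart relative to their spread, and the log2 fold change was 0.41 (standard error 0.0508, 1.33-fold, adjusted p = 0.00141 by limma). It passed on all 4 of its probe sets, which made up 4 of the 5 member probe sets that were higher. Of all 107 member probe sets 9 passed, or 8.41% where 11% of all probe sets did, with 5 higher (4.25% of all) and 4 lower (6.76% of all). At the gene level FOXO3 also passed whichever 1 of the 6 arrays was left out (adjusted p from 0.00254 to 0.00991), and on single probe sets in 6, 6, 3 and 1 of these 6 fits.

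The FOXO3 probe sets gave 0.49 on 204131_s_at and 224889_at, 0.36 on 231548_at and 0.29 on 224891_at. A further 3 probe sets that also read FOXO3B, a near-identical copy, were outside the members and had 0.46, 0.39 and 0.48 (adjusted p = 0.00406, 0.00702 and 0.00681), so that 7 probe sets of the sequence were higher in LP-1/Cfz. FOXO1, the other forkhead factor of the list, had 0.057, 0.11 and -0.055 in LP-1/Cfz, against -0.019, 0.029 and -0.0031 in LP-1. Its values overlapped, at a difference of 0.036 (95% interval from -0.097 to 0.17, adjusted p = 0.723), where the interval of FOXO3 ran from 0.29 to 0.53. The 10 measured genes around FOXO3 on chromosome 6, 5 on each side, had a median log2 fold change of 0.040, with 1 higher and 1 lower. The higher one was SESN1, a stress-induced sestrin, with a log2 fold change of 0.94 (adjusted p = 6.89e-05). It had 0.92, 1.08 and 0.88 in LP-1/Cfz, against -0.015, 0.0078 and 0.074 in LP-1.

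PINK1, the kinase that marks damaged mitochondria for autophagy, had 0.48, 0.52 and 0.52 in LP-1/Cfz, against 0.32, 0.25 and 0.26 in LP-1. The groups did not overlap on either of its 2 probe sets, and the log2 fold change was 0.23 (standard error 0.0479, 1.17-fold, adjusted p = 0.0156). Of the probe sets, 209019_s_at passed at 0.25 (adjusted p = 0.0429) and 209018_s_at did not at 0.21 (adjusted p = 0.0882). The call of the gene was lost without LP-1 replicate 2 and without LP-1 replicate 3 (highest adjusted p = 0.0719), and that of the probe set without any 1 of the 6 arrays (adjusted p from 0.0518 to 0.165). PINK1-AS, an RNA that overlaps PINK1 on the other strand, had a log2 fold change of 0.018 (adjusted p = 0.903).

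**Figure D3:**
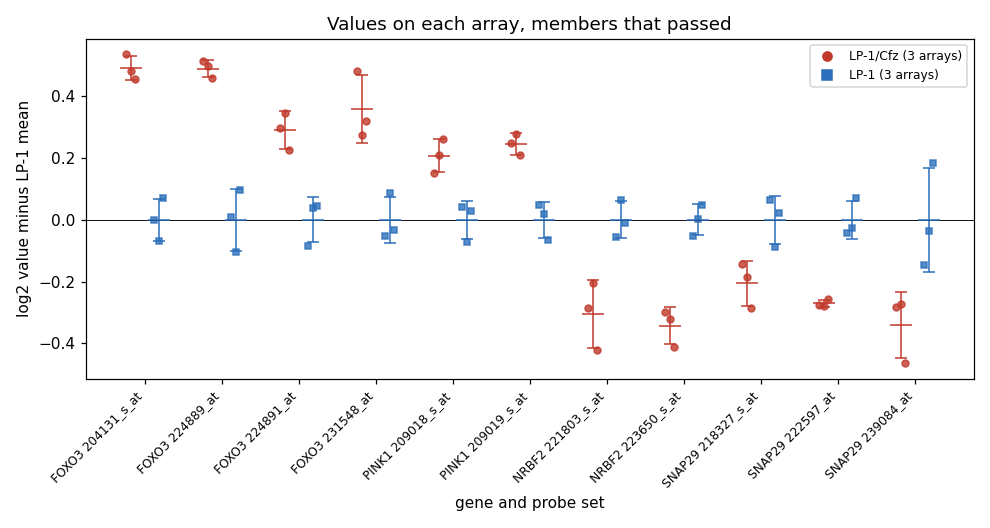
Log2 value minus the LP-1 mean for the 11 probe sets of FOXO3, PINK1, NRBF2 and SNAP29, with each of the 3 LP-1/Cfz and 3 LP-1 arrays as a point and bars for the mean and SD. On every probe set the LP-1/Cfz arrays lie on 1 side of the LP-1 arrays, above them for FOXO3 and PINK1 and below them for NRBF2 and SNAP29.

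Where a gene had several probe sets, these often did not give the same size of difference. Of the 29 members with more than 1 probe set, 18 had all of them on the same side of 0. EPG5, ATG3, RUBCN, WIPI2 and ATG10 had the widest spans, that of RUBCN running from -0.23 to 0.13 and that of WIPI2 from -0.12 to 0.28. On the highest WIPI2 probe set, 1570033_at, LP-1/Cfz replicate 3 had 0.51 where the other LP-1/Cfz arrays had 0.011 and -0.059. On ATG10, 223677_at had 0.71, 0.80 and 0.35 in LP-1/Cfz, against 0.25, 0.26 and 0.27 in LP-1. That difference of 0.36 had an adjusted p of 0.0853, and the other 3 ATG10 probe sets had 0.022 to 0.13. Probe sets of a gene share the same RNA and are not replicates, and those of STX17, TECPR1, AMBRA1 and ATG5, which each lay on 1 side of 0, are given as a description.

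**Figure D4:**
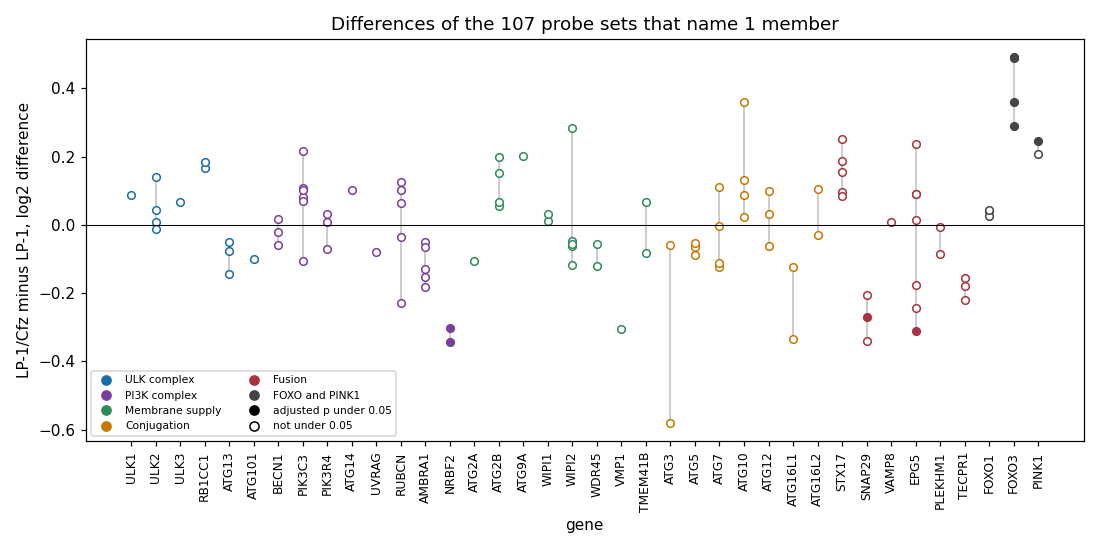
Log2 difference between LP-1/Cfz and LP-1 for each of the 107 probe sets that name 1 member, placed by gene and filled where the adjusted p was under 0.05. All 4 FOXO3 probe sets are filled above 0, both NRBF2 probe sets are filled below 0, and the 7 EPG5 probe sets span -0.31 to 0.24.

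The promoters of the members were read for short motifs, from 250 bases before to 50 bases after the start of each gene in RefSeq (GRCh38.p14), for the 33 members with an entry. The motifs were GTAAACA, the site that FOXO factors bind, CACGTG, the E-box at the centre of the element read by TFEB, TGACNNNGC, the core of the antioxidant response element of Nrf2, and TGATGNAAN, the element read by ATF4 with C/EBP partners, each on both strands. CACGTG was found in 5 of the 33 promoters, ULK3, ATG14, NRBF2, ATG3 and SNAP29, and in 7.43% of all 27305 promoters. TGACNNNGC was found in 3, ULK3, ATG101 and TECPR1, and in 13.6% of all. GTAAACA and TGATGNAAN were found in 0 of the 33, and in 3.41% and 3.67% of all. Both members that fell thus carry CACGTG in this window, at -246 from the start in NRBF2 and at -184 in SNAP29. The other carriers, ULK3, ATG14 and ATG3, were not called, and FOXO3 carries none of the 4 motifs. A match is a description of the letters and not a bound site. PINK1, the other member that rose, was not among the 33. The promoters of NRBF2, SNAP29 and FOXO3 are shown because their mRNA differed, with matches in capitals, and lie at chr10:63133078-63133377, chr22:20858757-20859056 and chr6:108559575-108559874, all on the plus strand, with a GC content of 64.3%, 75.3% and 78.3%.
NRBF2: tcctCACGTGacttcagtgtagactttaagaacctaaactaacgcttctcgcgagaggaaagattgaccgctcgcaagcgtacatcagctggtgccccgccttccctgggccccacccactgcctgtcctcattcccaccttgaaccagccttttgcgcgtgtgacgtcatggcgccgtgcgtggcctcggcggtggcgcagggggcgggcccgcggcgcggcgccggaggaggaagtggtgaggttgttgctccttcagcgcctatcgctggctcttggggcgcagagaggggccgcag
SNAP29: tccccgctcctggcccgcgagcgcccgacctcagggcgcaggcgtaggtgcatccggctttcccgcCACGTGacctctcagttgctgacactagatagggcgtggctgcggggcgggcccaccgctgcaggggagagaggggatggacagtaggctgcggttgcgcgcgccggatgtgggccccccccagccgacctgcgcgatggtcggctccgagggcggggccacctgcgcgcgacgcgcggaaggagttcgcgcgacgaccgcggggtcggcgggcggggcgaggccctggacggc
FOXO3: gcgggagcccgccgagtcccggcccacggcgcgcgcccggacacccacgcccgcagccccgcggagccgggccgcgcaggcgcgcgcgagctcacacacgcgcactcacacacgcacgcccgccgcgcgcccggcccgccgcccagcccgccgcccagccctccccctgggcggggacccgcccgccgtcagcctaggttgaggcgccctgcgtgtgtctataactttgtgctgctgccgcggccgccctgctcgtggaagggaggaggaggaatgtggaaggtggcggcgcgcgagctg

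Outside the members, 45 further genes of the pathway, all measured, held 5 that rose and 3 that fell in LP-1/Cfz, or 17.8% against the 16.7% of all genes. Of 17 kinase and mTORC1 genes, with the transcription factors TFEB and TFE3 counted among them, 2 rose, PRKAB2 and TFEB, and 1 fell. The 2 beta subunits of AMPK, the kinase that activates ULK1, went opposite ways. PRKAB1 had 0.13, 0.083 and 0.0047 in LP-1/Cfz, against 0.54, 0.50 and 0.56 in LP-1 (log2 fold change -0.46, standard error 0.0523, adjusted p = 0.000871). PRKAB2 had 0.91, 0.81 and 0.74 in LP-1/Cfz, against 0.53, 0.44 and 0.55 in LP-1 (log2 fold change 0.31, standard error 0.0613, adjusted p = 0.0108). For each of them the groups did not overlap, and both passed whichever array was left out. The catalytic subunits PRKAA1 and PRKAA2 had log2 differences of -0.066 and 0.095 and MTOR one of 0.049, with adjusted p values of 0.447, 0.313 and 0.66. TFEB had 0.78, 0.86 and 0.77 in LP-1/Cfz, against 0.37, 0.38 and 0.41 in LP-1. Its groups were apart, with a log2 difference of 0.42 (adjusted p = 0.00107, standard error 0.0491). Whether TFEB acts on the members that carry CACGTG was not tested.

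BCL2, which holds Beclin 1 inactive when bound to it, fell. It was the 1 of 4 Beclin 1 binders that passed, where 16.7% of all genes did. It had -0.61, -0.42 and -0.61 in LP-1/Cfz, against 0.68, 0.61 and 0.71 in LP-1. The groups were more than 1 log2 unit apart, and the log2 fold change of -1.21 (adjusted p = 2.30e-05, standard error 0.0669) was larger than that of any member. BCL2L1, MCL1 and TRAF6 had log2 differences of 0.016, -0.067 and 0.024. BCL2 passed in all 14 alternative fits, with log2 fold changes between -1.70 and -0.81.

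Of 10 further genes, among them the C9orf72 complex and readers and enzymes of phosphatidylinositol 3-phosphate, 1 passed, where 16.7% of all genes did. That gene was SMCR8, a partner of C9orf72 and WDR41 upstream of the ULK complex, and it fell. It had -0.12, -0.14 and -0.17 in LP-1/Cfz, against 0.31, 0.37 and 0.37 in LP-1 (log2 fold change -0.49, standard error 0.0479, adjusted p = 0.000431). C9orf72 and WDR41 had log2 differences of -0.0095 and -0.060, with adjusted p values of 0.934 and 0.438. Of 14 fusion partners 3 rose and 0 fell, where 6.72% of all genes were higher and 10% lower. By limma 5 of them had an unadjusted p under 0.05, as did 5892 of all 19775 genes. VAMP7, a SNARE of late endosomes and lysosomes, had 0.28, 0.26 and 0.19 in LP-1/Cfz, against -0.23, -0.23 and -0.15 in LP-1 (log2 fold change 0.45, standard error 0.051, adjusted p = 0.000932). The endosomal syntaxin STX7 and the lysosomal membrane protein LAMP2 had log2 fold changes of 0.28 (adjusted p = 0.0141) and 0.25 (adjusted p = 0.025). STX7 missed without LP-1/Cfz replicate 1, LP-1 replicate 1 or LP-1 replicate 2 (highest adjusted p = 0.0592), and LAMP2 missed whichever array was left out except LP-1/Cfz replicate 3 (highest adjusted p = 0.0964). RAB7A, the GTPase that recruits the tethers, had a log2 difference of -0.052 over 7 probe sets.

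The calls of the members were compared over 14 alternative fits, as drawn in the plot of calls by setting, of which NRBF2 and PINK1 could enter 13. FOXO3, NRBF2, PINK1 and SNAP29 were again the members called when each of the LP-1/Cfz arrays was left out in turn. Without LP-1 replicate 1, ATG3 was called as well, without LP-1 replicate 2, PINK1 was not, and without LP-1 replicate 3, neither PINK1 nor SNAP29 was. Against a minimum fold change of 1.2 (limma treat) 0 members were called, with 1 at an unadjusted p under 0.05, so that FOXO3 and NRBF2 were lost as well. With the median of the probe sets SNAP29 was not called. With only probe sets without a suffix, which leaves out NRBF2 and PINK1, FOXO3 and SNAP29 were called. With array weights 8 members were called, RB1CC1, ATG9A and STX17 among them as higher and TECPR1 as lower. With the arrays quantile normalized again 9 were called, where STX17, WIPI1 and VAMP8 were added as higher and ATG16L1 and TECPR1 as lower.

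**Figure D5:**
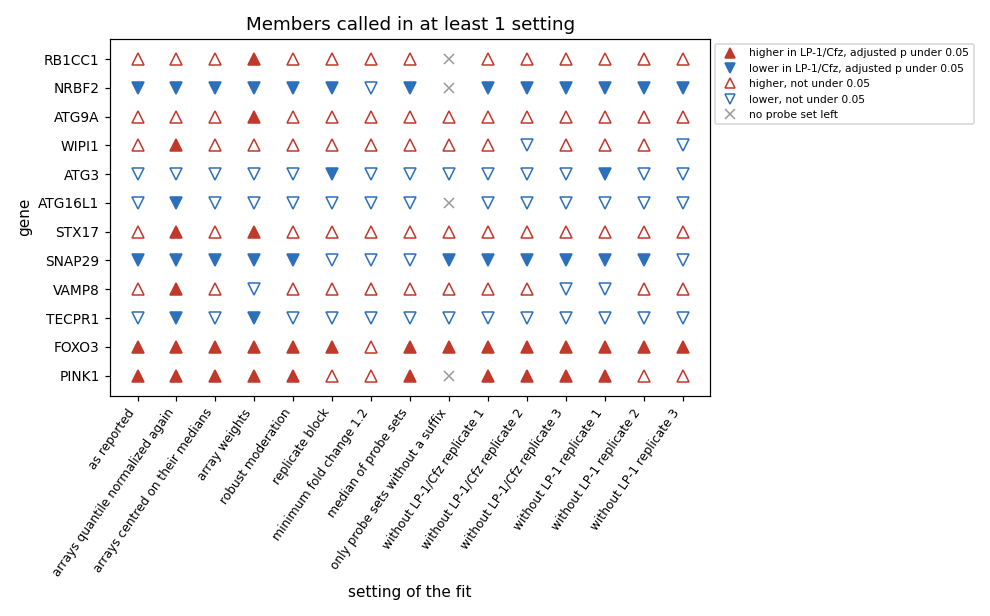
Direction and call of the 12 members that had an adjusted p under 0.05 in at least 1 of 15 settings of the fit, with the fit as reported at the left. FOXO3 is filled in 14 settings and NRBF2 in 13, and RB1CC1, ATG9A, WIPI1, ATG16L1 and VAMP8 are filled in 1 setting each.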

How the data were processed

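Each of the 3 LP-1/Cfz and 3 LP-1 RNA samples was hybridised to 1 Affymetrix U133 Plus 2.0 array. The deposited values are log2 values for 54613 probe sets, for which the submitters' processing notes name RMA with no version, and they stand centred for each probe set on an unstated baseline. Scale is taken from RMA and direction from the sample columns. The baseline stays unknown, so that no filter on dim probe sets could be applied. Of the probe sets, 41091 name 1 gene, 1801 several and 11721 none in the platform annotation, and 41037 of the 41091 matched a RefSeq table by gene identifier. The groups were compared with limma 3.58.1 in R 4.3.3 (lmFit, eBayes, no covariate), over all probe sets and over 19775 genes as means of single-gene probe sets, with Benjamini-Hochberg adjustment and a call at an adjusted p under 0.05. The fit was tested on simulated data, drawn with independent noise for each gene and without array effects. That test cannot show whether the calls hold in these arrays, where LP-1/Cfz replicate 3 differed from the rest. Precision is limited by the 6 arrays, and an exact two-sided permutation test of 3 against 3 arrays cannot give a p under 0.1. Per-array values are given for members called at the gene level or on a probe set, for ULK1 and BECN1, and, chosen after their values were seen, for RB1CC1, ATG9A, ATG3, ATG16L1, STX17, TECPR1, WIPI1, VMP1, VAMP8, FOXO1, 1 ATG10 and 1 WIPI2 probe set (LP-1/Cfz arrays alone for WIPI2), the shared VMP1 probe set and the neighbouring gene SESN1. Of the other pathway genes, up to 5 called in each direction are named. The members and lists were chosen with earlier results of these data known. Replicate numbers of the titles were checked for pairing, and the same-numbered arrays had correlations of their deviations from the group means of -0.065, 0.118 and -0.0199, so that they were not treated as pairs.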

Additional observations from a re-analysis of the deposited data

How the results depend on the processing

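The reported fits called 2 member genes higher and 2 lower. With the arrays quantile normalized again 5 and 4 were called, with array weights 5 higher, with the replicate number as a block 1 higher (the titles' numbers do not pair the arrays, and PINK1 and SNAP29 were lost and ATG3 gained under the block), with the median of the probe sets 1 lower, and with only probe sets without a suffix, which leaves 31 of the members, 1 and 1. Against a minimum fold change of 1.2 (limma treat), 0 and 0 were called, with 1 member at an unadjusted p under 0.05, and 624 of all genes and 1312 of all probe sets. Of member probe sets, 5 were higher and 4 lower as reported, 2 and 2 with the replicate block, 0 and 0 against the minimum fold change (2 and 0 at an unadjusted p under 0.05), and 0 and 0 at a fold change of 1.7, where 867 of all probe sets remained. Only probe sets without a suffix gave 2151 called genes in place of 3312, and 3 other pathway genes that were higher in place of 5, which became 0 against the minimum fold change. With 1 array left out, there were 1 to 2 member genes higher and 1 to 3 lower, 2 to 5 member probe sets higher and 0 to 3 lower, 3 to 7 other pathway genes higher and 3 to 4 lower, 2080 to 3183 genes and 3395 to 5355 probe sets called. The cause of these shifts was not tested, and the fits with 1 array left out or without suffixed probe sets also held fewer arrays or genes. FOXO3 was called in 13 of 14 alternatives, NRBF2 in 12 of 13, SNAP29 in 10 of 14 and PINK1 in 9 of 13, and none of these genes changed sign. Signs turned only for members that were not called as reported. With the arrays quantile normalized again BECN1 had 0.043, RUBCN -0.0013, ATG5 0.073 and ATG7 0.030, with centred arrays RUBCN had -0.0049, with the median of the probe sets RUBCN had -0.0068, ATG12 -0.028 and EPG5 0.0036, with only probe sets without a suffix ULK2 had -0.013, RUBCN -0.026 and WIPI2 0.082, and with array weights TMEM41B had 0.0072 and VAMP8 -0.092. With 1 array left out the values ran from -0.0014 to 0.11 for ULK2, -0.044 to 0.0087 for PIK3R4, -0.025 to 0.047 for RUBCN, -0.018 to 0.074 for WIPI1, -0.012 to 0.0099 for WIPI2, -0.024 to 0.016 for TMEM41B, -0.076 to 0.029 for ATG7, -0.026 to 0.087 for ATG12, -0.0033 to 0.11 for ATG16L2, -0.14 to 0.15 for VAMP8, -0.065 to 0.00051 for EPG5, -0.10 to 0.0074 for PLEKHM1 and -0.0013 to 0.083 for FOXO1. Signal over background could not be read from centred values. The further quantile normalization also acted on these centred values, so that its calls and sign turns do not show what normalizing the signal itself would give.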
